A study of Mus musculus with 6 samples.

Results

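Chemokines and their receptors were followed in mouse liver RNA by taking every deposited gene symbol that names a numbered chemokine ligand (Ccl, Cxcl, Cx3cl, Xcl) or receptor (Ccr, Cxcr, Cx3cr, Xcr, Ackr). The rule found 57 genes, 35 ligands and 22 receptors, among 22183 symbols. The libraries came from 3 liver samples labelled DOX and 3 labelled PBS, the usual short form of phosphate-buffered saline. All 6 carried the genotype BucheKI/KI-Hep and the treatment label DDC, so DOX alone separates the groups by label. By its design text the series raised BUCHE (butyrylcholinesterase) in hepatocytes and used DDC to make the disease model. In liver work DDC commonly stands for a dihydrocollidine compound that causes bile duct injury, and DOX for doxycycline, a drug that switches on engineered genes. The labels expand neither word and give no age, sex, dose or duration. They do not name the promoter that drives the knock-in, and no group lacks DDC or the knock-in. Whether samples within a group are separate animals is not stated, so p-values reflect only the spread among these samples, and that spread could be technical.

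Chemokines are small secreted proteins that guide leukocytes along gradients. They are named for the spacing of their first cysteines (CC, CXC, CX3C and C) and bind receptors with 7 membrane passes that signal through inhibitory G proteins. Atypical receptors bind chemokines and remove them without that signal. In injured liver, hepatocytes, bile duct cells, stellate cells, endothelium and macrophages release chemokines that bring in monocytes, neutrophils, dendritic cells and lymphocytes.

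Total counts were 32476725 to 40298256 in the DOX libraries and 40592030 to 41921404 in the PBS libraries. Bche mRNA averaged 1856 ± 87.7 CPM in DOX and 187 ± 16.5 CPM in PBS livers (SD, n = 3 each), 9.94-fold higher in DOX (adjusted p = 1.65e-07, edgeR). CPM is the count scaled to library depth, here with TMM factors, which correct for differences in composition. Hepatocyte markers were present in every library, with summed levels of 85669 to 110116 CPM in DOX and 84591 to 89192 CPM in PBS livers. Mitochondrially encoded genes took 5.11 to 6.81% of counts in DOX and 3.45 to 4.58% in PBS libraries, and the part of this difference in the results below was not tested.

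DOX livers held less mRNA of the 3 CCR2 ligands Ccl2, Ccl7 and Ccl12, which attract monocytes, of the CXCR3 ligands Cxcl9 and Cxcl10, which attract activated T cells, and of the receptors CCR2, CXCR2 and XCR1. The calls of Ccl7, Cxcl9 and Cxcr2 were lost when some single libraries were left out. They held more mRNA of the abundant macrophage chemokines Ccl6 and Ccl9. Ccl20, the CCR6 ligand, was 20.8-fold lower and Cxcl10, a CXCR3 ligand, 6.72-fold lower. Of the 57 genes, 43 passed the filter on low counts and could be tested with edgeR's quasi-likelihood test. At an adjusted p under 0.05, 13 were lower and 5 higher in DOX livers, against 14% lower and 13.5% higher among all 14681 genes tested (27.5% in either direction). The members' own shares were 30.2% lower and 41.9% in either direction. The median log2 fold change was -0.56 over the 43 tested members and -0.01 over all genes tested. A filter on counts keeps a gene that is high in one group alone, so these are values of the tested members and not of the whole family. When libraries were scaled by their size alone, 15 members were lower and 3 higher, so that 16.7% of called members were higher in place of 27.8%. That scaling moved the median of all genes to -0.16 on the log2 scale. In bulk tissue, fewer cells of a type and less RNA per cell cannot be told apart.

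**Figure D1:**
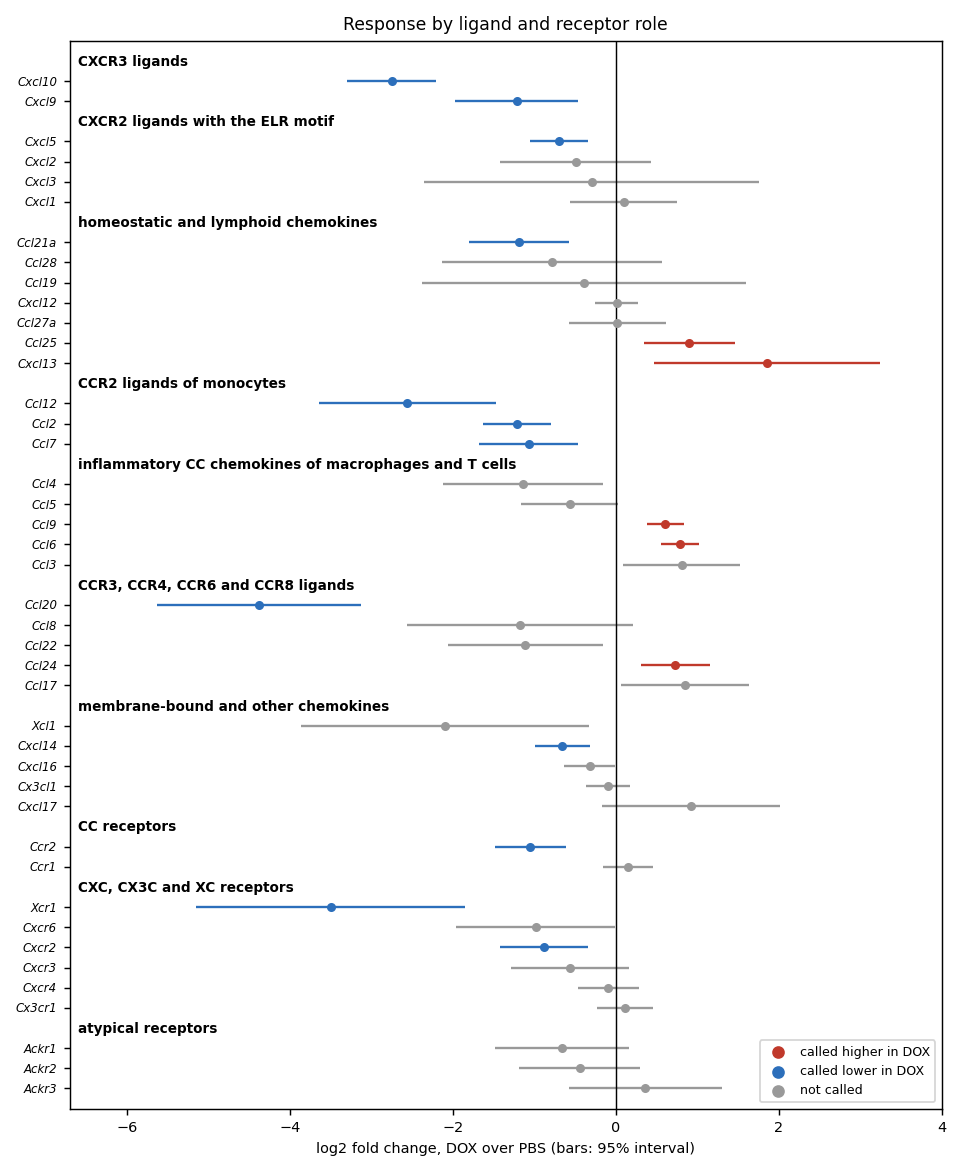
Log2 fold change (x axis, DOX over PBS) of 42 tested chemokine and receptor genes, grouped by role, with 95% intervals from the edgeR fit over 3 DOX and 3 PBS libraries. Both CXCR3 ligands and all 3 CCR2 ligands lie left of 0 in blue (called lower), and Ccl6 and Ccl9 lie right of 0 in red (called higher).

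Promoter sequence is shown for 6 ligands that carry an inflammatory motif upstream and whose levels differed in direction or call. Each is the 250 bases before the annotated start, 5′ to 3′ on the strand of the gene, from RefSeq (GRCm38.p6). Capitals mark matches, on either strand, to an interferon-stimulated response element core (GAAA, 2 free bases, GAAA) or to a form of the NF-kB site (GGG, 2 free bases, TTTCC). Cxcl10 and Ccl20 fell, Ccl9 rose, and Cxcl1, Cxcl2 and Cxcl3 did not pass the test.
Cxcl10 (chr5:92348890-92349139, minus strand): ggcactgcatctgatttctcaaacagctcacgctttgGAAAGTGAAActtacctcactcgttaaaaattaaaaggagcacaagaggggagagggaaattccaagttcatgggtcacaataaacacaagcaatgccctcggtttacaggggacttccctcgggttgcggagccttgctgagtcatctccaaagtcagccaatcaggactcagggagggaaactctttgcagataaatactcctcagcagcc
Ccl20 (chr1:83116516-83116765, plus strand): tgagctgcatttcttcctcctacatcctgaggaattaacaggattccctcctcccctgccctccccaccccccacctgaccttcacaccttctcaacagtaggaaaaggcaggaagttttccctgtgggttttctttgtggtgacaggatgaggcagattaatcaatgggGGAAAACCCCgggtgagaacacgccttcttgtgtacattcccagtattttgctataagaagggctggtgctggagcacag
Ccl9 (chr11:83578637-83578886, minus strand): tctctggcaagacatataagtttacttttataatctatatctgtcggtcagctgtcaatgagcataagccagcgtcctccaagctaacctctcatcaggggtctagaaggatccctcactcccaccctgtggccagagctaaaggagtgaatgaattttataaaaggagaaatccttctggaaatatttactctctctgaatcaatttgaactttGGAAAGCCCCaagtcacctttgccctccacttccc
Cxcl1 (chr5:90890995-90891244, plus strand): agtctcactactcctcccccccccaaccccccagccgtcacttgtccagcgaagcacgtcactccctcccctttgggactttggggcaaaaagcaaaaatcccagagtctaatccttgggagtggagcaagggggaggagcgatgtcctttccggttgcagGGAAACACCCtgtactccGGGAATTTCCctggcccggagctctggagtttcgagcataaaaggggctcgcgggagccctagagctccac
Cxcl2 (chr5:90903649-90903898, plus strand): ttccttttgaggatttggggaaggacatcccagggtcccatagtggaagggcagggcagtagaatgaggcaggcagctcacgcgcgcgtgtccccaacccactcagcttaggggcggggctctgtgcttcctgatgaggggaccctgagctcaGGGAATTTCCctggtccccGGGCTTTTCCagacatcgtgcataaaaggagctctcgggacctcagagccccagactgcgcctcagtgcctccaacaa
Cxcl3 (chr5:90785851-90786100, plus strand): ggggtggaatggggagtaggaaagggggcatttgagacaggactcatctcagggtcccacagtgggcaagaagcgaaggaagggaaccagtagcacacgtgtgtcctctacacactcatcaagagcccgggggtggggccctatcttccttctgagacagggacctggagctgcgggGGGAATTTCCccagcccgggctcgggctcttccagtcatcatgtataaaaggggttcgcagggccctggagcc

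The NF-kB form began 71 and 89 bases before the start of Cxcl1, 78 and 97 before that of Cxcl2, 73 before that of Cxcl3, 80 before that of Ccl20 and 35 before that of Ccl9. The interferon element core began 213 bases before the start of Cxcl10. RefSeq gave windows for 44 of the 57 members, 13 of them called. Called members without a window, whose upstream sequence was not searched, included Ccl2, Ccl7, Ccl24 and Cxcl5. Some members had more than 1 window, 51 in all. The NF-kB form was found in 6 of the 44 genes, or 6 of the 51 windows, and in 1.41% of 32851 windows of all genes. It was present in 1 of the 9 called lower (Ccl20), 1 of the 4 called higher (Ccl9), 3 of the 21 not called and 1 of the 10 not tested (Ccr3). The interferon element core was found in 3 members, of which Cxcl10 and Cxcl14 fell and Ccl19 did not pass. These were 3 of the 51 windows, against 2.98% of all windows. A gamma-activated site form (TTCNNNGAA), which reads the same on both strands, occurred upstream of Cxcl14, Ccl17 and Ccr6 (3 of the 51 windows) and in 7.02% of all windows. These are matches of letters within 250 bases, not measured binding sites, and Cxcl9 had no match to any of the 3 forms in its window.

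The plot of levels per gene length orders the tested members over a wide range. Levels between genes are compared here in FPKM, the authors' count scaled to gene length and library total. Ccl6 and Ccl9, CC chemokines of rodent macrophages that bind CCR1, stood highest, with mean levels of 124 and 75.2 FPKM in DOX and 79.9 and 55.0 FPKM in PBS livers. Cxcl12, the CXCR4 ligand of stromal and endothelial cells, followed at 36.8 FPKM in DOX and 40.8 FPKM in PBS. Cxcl16, the membrane-bound ligand of CXCR6, had 29.0 FPKM in DOX and 40.5 FPKM in PBS. Ccl2, the main monocyte attractant, had 17.7 FPKM in DOX livers, below Cxcl16 and Cxcl12, and 45.6 FPKM in PBS livers, where it exceeded both on average. Receptors were lower, the highest being Cx3cr1 at 5.75 FPKM in DOX and 5.96 FPKM in PBS.

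**Figure D2:**
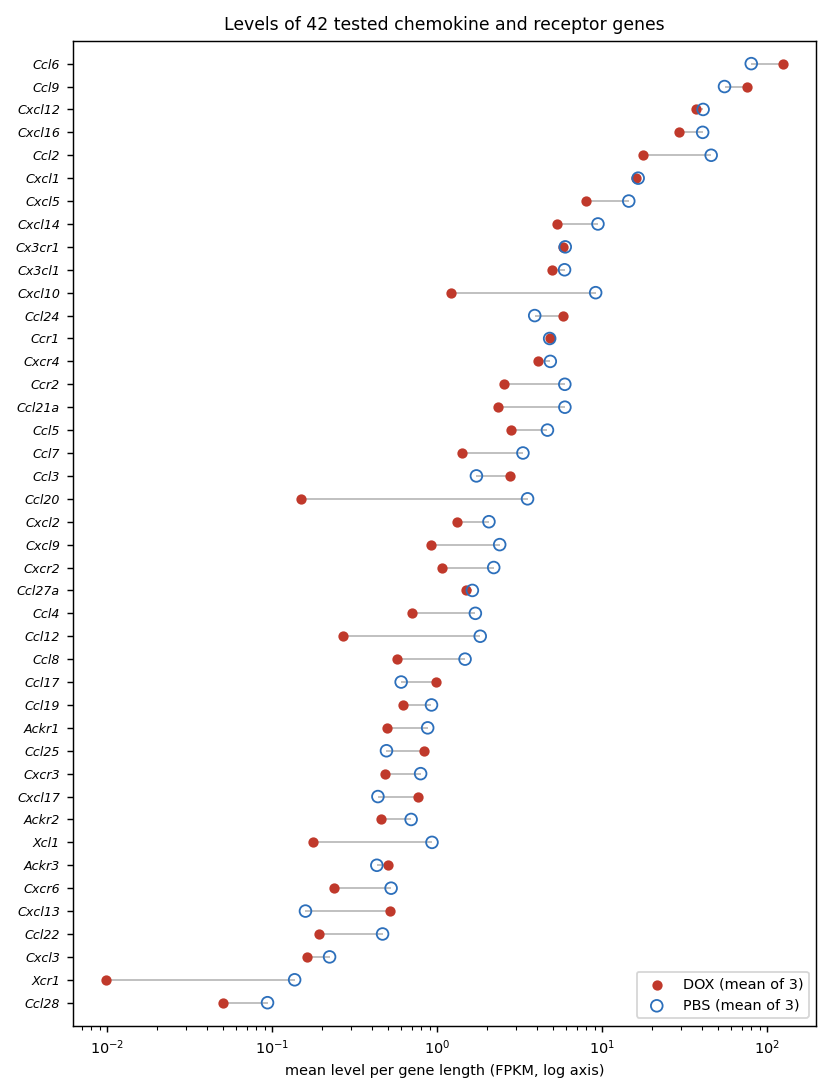
Mean level per gene length (FPKM, log axis) of 42 tested members in DOX livers (filled red) and PBS livers (open blue), each a mean of 3 libraries, ordered by the mean over all 6. Ccl6 leads at 124 FPKM in DOX and 79.9 FPKM in PBS, and Ccl20 and Xcr1 show wide gaps between the groups.

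The summed ligand level ran from 849 to 883 CPM in DOX libraries and from 734 to 781 CPM in PBS libraries. The summed receptor level ran the other way, from 68.0 to 83.7 CPM in DOX and from 98.1 to 124 CPM in PBS libraries. Ccl6, Ccl9, Cxcl12 and Cxcl16, chosen after their values were seen, made up 79.0 to 81.3% of the members' reads in DOX libraries and 67.8 to 69.3% in PBS libraries. The sum of the ligands was higher in DOX although 9 ligands were called lower and 5 higher.

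Among the CCR2 ligands, all 3 measured genes fell. Ccl2 stood at 16.6, 12.0 and 16.5 CPM in DOX livers and at 25.5, 42.1 and 37.0 CPM in PBS livers. Every DOX library lay below every PBS library, a 2.32-fold lower level in DOX (log2 fold change -1.21, SE 0.19, adjusted p = 0.00191, edgeR). Ccl12, a monocyte chemokine of the mouse close to Ccl2 in sequence, had 0.159, 0.236 and 0.0635 CPM in DOX and 0.852, 1.05 and 0.867 CPM in PBS livers. Its level was 5.88-fold lower in DOX (SE 0.50 on the log2 scale, adjusted p = 0.00404), with counts of 2 to 8 per DOX library against 37 to 46 per PBS library. Ccl7, which shares the receptor, had 1.40, 0.943 and 1.24 CPM in DOX and 2.07, 2.67 and 2.79 CPM in PBS livers (log2 fold change -1.07, SE 0.28, adjusted p = 0.0154). The groups did not overlap for any of these 3 genes, as was so for 44.1% of all genes tested. Leaving out PBS 2 (adjusted p = 0.0537) or PBS 3 (0.0557) ended the call of Ccl7, whose values spanned 0.00299 to 0.0557 across alternatives.

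Ccr2, the receptor of these ligands on inflammatory monocytes, fell as well. It stood at 12.5, 16.2 and 9.65 CPM in DOX livers and at 32.2, 25.5 and 21.6 CPM in PBS livers, again without overlap (log2 fold change -1.05, SE 0.20, adjusted p = 0.00414). Ccr1, the receptor of Ccl6 and Ccl9 on myeloid cells, did not pass, with 13.4 to 15.03 CPM in DOX and 10.7 to 14.3 CPM in PBS livers. Its log2 fold change was 0.15 with a 95% interval of -0.15 to 0.46.

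The inflammatory CC chemokines of macrophages and T cells divided. Ccl6 had 181, 180 and 201 CPM in DOX livers and 116, 110 and 99.3 CPM in PBS livers, so that the groups stood well apart (log2 fold change 0.79, SE 0.11, adjusted p = 0.000745). Ccl9 had 225, 238 and 253 CPM in DOX and 157, 159 and 154 CPM in PBS livers (log2 fold change 0.61, SE 0.10, adjusted p = 0.00223). Both genes rose, and both lie in one stretch of chromosome 11 together with Ccl3, Ccl4 and Ccl5, none of which passed. Ccl3, an inflammatory chemokine of macrophages, had 1.62 to 3.27 CPM in DOX and 1.004 to 1.45 CPM in PBS livers, without overlap (log2 fold change 0.81, adjusted p = 0.0864). Its neighbour Ccl4 had 0.236 to 0.794 CPM in DOX and 0.937 to 1.24 CPM in PBS livers, also without overlap and with a log2 fold change of -1.14 (adjusted p = 0.0801). Ccl5, a chemokine of T and NK cells, had 1.46 to 1.74 CPM in DOX and 1.99 to 2.99 CPM in PBS livers (log2 fold change -0.57, adjusted p = 0.141). Ccl3 passed on leaving out DOX 2 (adjusted p = 0.0372, between 0.0372 and 0.353 across alternatives). Ccl4 passed on leaving out DOX 3 (0.038, between 0.038 and 0.205).

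**Figure D3:**
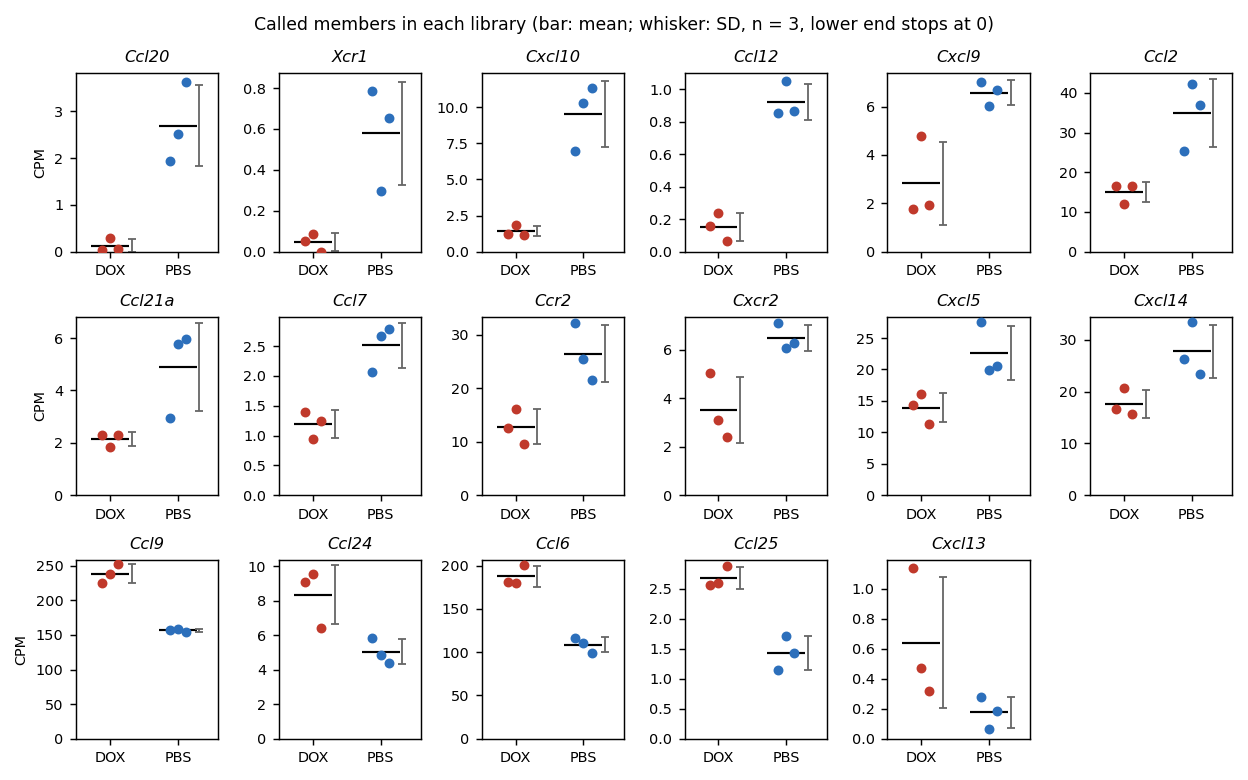
CPM (y axis, from 0) of 17 called members in each of the 3 DOX (red) and 3 PBS (blue) libraries, with group means as bars and SD as whiskers that stop at 0. No DOX point overlaps the PBS points in any panel, and 12 genes lie lower and 5 higher in DOX.

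Both CXCR3 ligands fell. Cxcl10, an interferon-induced attractant of activated T and NK cells, stood at 1.24, 1.83 and 1.17 CPM in DOX livers and at 6.96, 10.3 and 11.4 CPM in PBS livers. The highest DOX library was far below the lowest PBS library (log2 fold change -2.75, SE 0.25, adjusted p = 8.08e-05), the smallest p among the members. Cxcl9, its neighbour on chromosome 5 and likewise interferon-induced, had 1.75, 4.80 and 1.94 CPM in DOX and 7.02, 6.02 and 6.67 CPM in PBS livers. DOX 2 was the highest of the DOX libraries and came near the PBS range (log2 fold change -1.22, SE 0.34, adjusted p = 0.0237). Cxcl9 was 3.54-fold lower in place of 2.33-fold without DOX 2. It did not pass without DOX 1 (adjusted p = 0.0722), DOX 3 (0.0747), PBS 1 (0.0656), PBS 2 (0.0514) or PBS 3 (0.0668), in a range of 0.000101 to 0.0747. Cxcr3, their receptor on T and NK cells, had 0.714 to 0.952 CPM in DOX and 1.14 to 1.26 CPM in PBS livers, without overlap but not past the test (log2 fold change -0.56, 95% interval -1.28 to 0.16, adjusted p = 0.228). Exons of Cxcl10 overlap those of Art3 on the other strand in GENCODE M21, and how the counting treated strand is not given in the sources used here.

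Of the CXCR2 ligands, the neutrophil attractants of the CXC group, 1 of 4 fell. Cxcl5 had 14.4, 16.03 and 11.4 CPM in DOX livers and 27.6, 19.9 and 20.5 CPM in PBS livers, without overlap (log2 fold change -0.70, SE 0.16, adjusted p = 0.00932). Cxcl1, the most abundant of them, had 20.03, 10.5 and 17.6 CPM in DOX and 14.6, 10.6 and 19.8 CPM in PBS livers, and the groups covered the same span. Its log2 fold change was 0.10 with a 95% interval of -0.56 to 0.75. Cxcl2 had 0.767 to 2.62 CPM in DOX and 1.67 to 2.86 CPM in PBS livers (adjusted p = 0.413, and 0.0341 when DOX 2 was left out, between 0.0341 and 0.801 across alternatives), and Cxcl3 stayed under 0.5 CPM in every library. All 4 lie within positions 90759298 to 90905938 of chromosome 5 (GRCm38.p6), and the NF-kB form shown above is present upstream of Cxcl1, Cxcl2 and Cxcl3. Cxcl5 had no promoter window, so its upstream sequence was not searched.

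Cxcr2, the receptor of these ligands on neutrophils, had 5.03, 3.09 and 2.41 CPM in DOX livers and 7.12, 6.09 and 6.28 CPM in PBS livers (log2 fold change -0.88, SE 0.25, adjusted p = 0.0218). The highest DOX library was below the lowest PBS library. The call was lost without DOX 3 (adjusted p = 0.0749), PBS 1 (0.0703) or PBS 3 (0.0522), in a range of 0.00171 to 0.0749. The neutrophil list did not move in one direction. Of its 10 genes 7 were tested, with Csf3r, the G-CSF receptor, lower (log2 fold change -1.06) and the granule and blood neutrophil genes Ngp, Retnlg and Mmp8 higher (2.98, 1.99 and 1.02). Among all genes tested 14% were lower and 13.5% higher. Ngp had counts of 38, 12 and 28 in DOX and 8, 4 and 0 in PBS libraries. The granule gene Ltf pointed the other way without passing (-0.93). Camp, also a granule gene and under the filter, had 1 read in DOX and 12 in PBS. Retnlg overlapped between the groups, DOX 2 at 0.796 CPM lying below PBS 2 at 0.981 CPM. The list summed to 41.3 to 90.3 CPM in DOX and 39.3 to 62.0 CPM in PBS livers. Most of these sums came from Csf3r and from S100a8 and S100a9, neither of which passed. Ly6g and Mpo were at 0 in all PBS libraries and at no more than 1 count in any DOX library. The part of neutrophil number in the Cxcr2 value was not tested.

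Among the ligands of CCR3, CCR4, CCR6 and CCR8, Ccl20 fell and Ccl24 rose. Ccl20, made by epithelium including bile ducts and drawing CCR6-bearing lymphocytes and dendritic cells, stood at 0.0265, 0.295 and 0.0635 CPM in DOX livers and at 1.93, 2.51 and 3.63 CPM in PBS livers. These are counts of 1, 10 and 2 in DOX against 84, 110 and 155 in PBS libraries, with every DOX library near the lower limit of measurement (log2 fold change -4.38, SE 0.57, adjusted p = 0.000612). Without DOX 2, which held 10 of the 13 reads of its group, the level was 57.3-fold lower. The bile duct list summed to 545 to 787 CPM in DOX and 780 to 947 CPM in PBS livers. Most of these sums was Spp1, which is also on the list of monocytes and recruited macrophages. Spp1 stood at 540, 424 and 634 CPM in DOX and at 765, 752 and 634 CPM in PBS livers. Of the 7 genes Sox9 was lower (log2 fold change -0.96), against 14% lower among all genes tested. The other 6, Spp1, Krt19, Krt7 and Epcam among them, did not pass. The part of bile duct cells in the Ccl20 value was not tested. Ccr6 itself was under the filter, with counts of 1, 1 and 0 in DOX and 7, 3 and 7 in PBS libraries.

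Ccl24, a CCR3 ligand that attracts eosinophils, had 9.08, 9.58 and 6.41 CPM in DOX livers and 5.85, 4.88 and 4.40 CPM in PBS livers, without overlap (log2 fold change 0.73, SE 0.19, adjusted p = 0.0168). It did not pass without DOX 1 (adjusted p = 0.0642), PBS 2 (0.0564) or PBS 3 (0.0671), in a range of 0.00332 to 0.0671. Ccl17 and Ccl22, both CCR4 ligands made by dendritic cells and macrophages, pointed apart without passing. Ccl17 had 1.46 to 1.56 CPM in DOX and 0.548 to 1.22 CPM in PBS livers (log2 fold change 0.85, adjusted p = 0.0993), and passed without PBS 1 (0.0483, in a range of 0.0483 to 0.267). Ccl22 had 0.265 to 0.560 CPM in DOX and 0.707 to 0.890 CPM in PBS livers (log2 fold change -1.11, adjusted p = 0.0786), and passed with scaling by library size alone (0.0462) or on leaving out DOX 2 (0.0372), between 0.0372 and 0.232 across alternatives. Ccl8, which in the mouse binds CCR8, overlapped between the groups (adjusted p = 0.191).

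The homeostatic chemokines, which place lymphocytes and progenitors in resting tissue, showed 1 gene lower, 2 higher and 4 not past the test. Cxcl12 had 306, 284 and 246 CPM in DOX livers and 296, 275 and 258 CPM in PBS livers, and the groups lay on top of each other. Its log2 fold change was 0.01 with a 95% interval of -0.25 to 0.28. Its receptor Cxcr4, on leukocytes and progenitors, likewise overlapped, with a log2 fold change of -0.09 and an interval of -0.47 to 0.28, and the scavenging receptor Ackr3 had 0.820 to 1.80 CPM in DOX and 0.525 to 1.33 CPM in PBS livers (adjusted p = 0.565). Ccl21a, which guides dendritic cells and T cells through CCR7 and is made by lymphatic endothelium, had 2.30, 1.83 and 2.32 CPM in DOX and 2.95, 5.77 and 5.95 CPM in PBS livers. PBS 1 was closest to the DOX range (log2 fold change -1.18, SE 0.28, adjusted p = 0.0101). Ccl21a has closely similar copies, among them Ccl21b, and how reads shared between copies were counted is not given in the sources used here. The other CCR7 ligand, Ccl19, varied within both groups, from 0.0635 to 1.15 CPM in DOX and from 0.230 to 1.28 CPM in PBS livers (adjusted p = 0.776).

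Ccl25, the CCR9 ligand of gut and thymus, had 2.57, 2.59 and 2.89 CPM in DOX livers and 1.15, 1.71 and 1.43 CPM in PBS livers, without overlap (log2 fold change 0.90, SE 0.26, adjusted p = 0.0232). The call was lost without DOX 1 (adjusted p = 0.0566), DOX 3 (0.0696), PBS 1 (0.0854) or PBS 3 (0.0619) and with scaling by library size alone (0.0533), in a range of 0.00642 to 0.0854. Exons of Ccl25 overlap those of Elavl1, a gene on the other strand. Cxcl13, the CXCR5 ligand that gathers B cells, had 1.14, 0.472 and 0.317 CPM in DOX and 0.276, 0.0685 and 0.187 CPM in PBS livers (log2 fold change 1.86, SE 0.63, adjusted p = 0.0477). DOX 1 was the highest DOX library, and without it the log2 fold change was 1.14 (adjusted p = 0.272). Cxcl13 also did not pass without PBS 1 (0.0568), PBS 2 (0.153) or PBS 3 (0.11) or with scaling by library size alone (0.0609), in a range of 0.0245 to 0.272. Cxcr5 and Ccr9, the receptors of these ligands, were under the filter.

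Of the remaining ligands, Cxcl14, an epithelial and stromal chemokine with no settled receptor, fell. It stood at 16.6, 20.7 and 15.7 CPM in DOX livers and at 26.3, 33.5 and 23.4 CPM in PBS livers, without overlap (log2 fold change -0.65, SE 0.15, adjusted p = 0.00988). Cxcl16 had 54.5, 35.7 and 47.1 CPM in DOX and 56.8, 62.4 and 52.4 CPM in PBS livers, with DOX 1 inside the PBS range (log2 fold change -0.32, adjusted p = 0.117). It passed without DOX 1 (adjusted p = 0.0415) and with scaling by library size alone (0.0321), in a range of 0.0321 to 0.321. Its receptor Cxcr6, of liver-resident T and NKT cells, had 0.383 to 0.529 CPM in DOX and 0.616 to 1.47 CPM in PBS livers, without overlap and with an adjusted p of 0.122. Exons of Cxcl16 overlap those of Zmynd15 on the other strand.

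Cx3cl1, a membrane-bound chemokine of endothelium and epithelium, and its receptor Cx3cr1 on monocytes and macrophages did not pass. Cx3cl1 had 18.4, 16.1 and 14.6 CPM in DOX and 18.0, 16.7 and 18.1 CPM in PBS livers, a log2 fold change of -0.10 with a 95% interval of -0.37 to 0.17. Cx3cr1 had 26.6, 22.7 and 19.1 CPM in DOX and 24.8, 21.2 and 17.4 CPM in PBS livers, a log2 fold change of 0.11 with an interval of -0.23 to 0.45. Both groups spanned nearly the same values for this ligand and its receptor. Cxcl17, Ccl27a and Ccl28, chemokines of mucosa and skin, had adjusted p-values of 0.191, 0.965 and 0.374.

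Xcr1, the receptor of cross-presenting dendritic cells, was the receptor with the greatest fold change among those tested. It stood at 0.0529, 0.0884 and 0 CPM in DOX livers and at 0.783, 0.297 and 0.656 CPM in PBS livers, which are counts of 2, 3 and 0 against 34, 13 and 28. The groups did not overlap (log2 fold change -3.50, SE 0.76, adjusted p = 0.00651), and without DOX 2 the level was 18.2-fold lower in place of 11.3-fold. Its ligand Xcl1, from NK and T cells, had 0.265, 0.0295 and 0 CPM in DOX and 0.622, 0.434 and 0.304 CPM in PBS livers (log2 fold change -2.09, adjusted p = 0.0745, above the threshold). Xcl1 passed without DOX 1 (adjusted p = 0.0154), with the low-count filter off (0.0374) and with the replicate number as a block (0.0465), in a range of 0.0154 to 0.202. Of 7 dendritic cell markers 6 fell, against 14% of all genes tested. Among them were Cd209a (log2 fold change -2.70), Siglech (-4.36), Clec9a (-1.44) and Itgax (-0.55), and Zbtb46 did not pass. Siglech had counts of 0, 2 and 0 in DOX and 17, 21 and 22 in PBS libraries, so only its PBS libraries carried it past the filter. The list summed to 55.0 to 89.9 CPM in DOX and 153 to 179 CPM in PBS livers, with no marker at 0 in a whole group. Most of the PBS sums was H2-Ab1, also called lower, at 106, 131 and 110 CPM (adjusted p = 0.0494, edgeR). In DOX livers H2-Ab1 stood at 60.1, 51.0 and 21.1 CPM. Zbtb46 averaged 6.76 CPM in DOX and 6.94 CPM in PBS livers. The part of dendritic cell number in the Xcr1 value was not tested.

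The atypical receptors clear chemokines. Ackr1, which carries chemokines across venular endothelium, had 0.501 to 0.714 CPM in DOX and 0.821 to 1.22 CPM in PBS livers, without overlap (log2 fold change -0.66, adjusted p = 0.213). Ackr2, a scavenger of inflammatory CC chemokines, had 0.926 to 2.39 CPM in DOX and 2.004 to 2.14 CPM in PBS livers (adjusted p = 0.356). Exons of Ackr1 and Cadm3 overlap. Of the 14 members under the filter, 12 had more raw reads in all PBS libraries together than in all DOX libraries together and 1 had fewer. These sums are not scaled to depth, and each PBS library held more counts in total than any DOX library. Ccr3, among the 12, had 22 reads in DOX and 23 in PBS, but averaged 0.208 CPM in DOX and 0.177 CPM in PBS. The highest count of the 14 in any library was 26. Ackr4, the scavenger of CCL19, CCL21 and CCL25, had counts of 1, 2 and 1 in DOX and 22, 5 and 23 in PBS libraries. Ccr7, the receptor of CCL19 and CCL21 on migrating dendritic cells and T cells, had counts of 5, 2 and 2 in DOX and 26, 10 and 23 in PBS libraries. With the filter off, Ackr4 and Ccr7 were the untested members that passed (adjusted p = 0.00419 and 0.0137, edgeR). The filter also kept them in some runs with 1 library left out. There Ackr4 passed without DOX 2 (0.0211) or PBS 2 (0.0100) but not without DOX 1 (0.0610) or DOX 3 (0.0569). Ccr7 passed without DOX 1 (0.0382), DOX 2 (0.0471) or PBS 2 (0.0205) but not without DOX 3 (0.0704). Ccl1, Ccr4, Ccr10 and Cxcr5 had 0 reads in all DOX libraries and at most 4 in a PBS library, so a difference was not detectable at this depth. A count of 0 allows up to 3 counts, or 0.0794 to 0.0952 CPM in the DOX libraries, counting error only.

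Clusters of neighbouring genes did not all share a direction. On chromosome 11 (GRCm38.p6), positions 82035577 to 82179812 hold Ccl2, Ccl7, Ccl11, Ccl12, Ccl8 and Ccl1, of which 4 were tested, 3 fell and 0 rose. Positions 83525778 to 83664683 of the same chromosome hold Ccl5, Ccl9, Ccl6, Ccl3 and Ccl4, of which 2 rose and 0 fell. On chromosome 9, a cluster of receptor genes includes Xcr1 and Ccr2, which fell, beside Ccr1 and Cxcr6, which did not pass. On chromosome 8, Ccl22, Cx3cl1 and Ccl17 between 94745684 and 94812038 held no called gene.

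Genes around the chemokine system were counted from lists. Of 17 tested genes in a list of inducers, transcription factors and regulators of chemokine genes, 11 fell and 0 rose. Among all genes tested 14% fell. The median log2 fold change of the list was -0.67. The 11 included Nfkb2 (log2 fold change -1.35, adjusted p = 8.08e-05), of the NF-kB family, and the interferon factors Irf9 (-0.81) and Irf1 (-0.73). They also included Tnfaip3 (-1.07), an inhibitor of NF-kB and not an inducer. Of 19 tested signalling genes downstream of the receptors, 2 rose, Gng2, a G protein gamma subunit (0.86), and Grk6, a receptor kinase (0.39), and 0 fell. Over all genes tested 13.5% rose and 27.5% were called in either direction. Among 12 genes that process or bind chemokines, Adam17, Anpep and Mmp9 fell (-0.62, -0.92 and -1.51) and Ext1 and Sdc4, of heparan sulfate proteoglycans, rose (0.59 and 0.61). Of 9 tested related genes outside the symbol rule, Pf4, the platelet chemokine also known as CXCL4, rose (0.83) and Cmtm3 fell (-0.46).

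**Figure D4:**
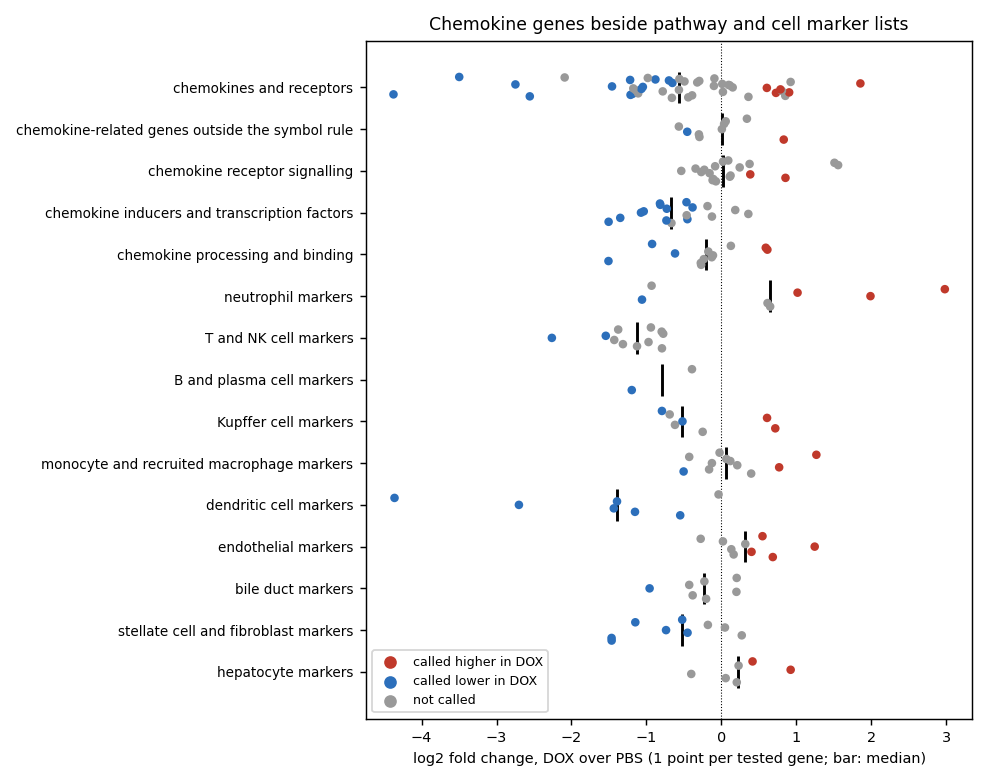
Log2 fold change (x axis, DOX over PBS) of each tested gene of the chemokine family and of 14 pathway and marker lists, coloured by call, with the median of each list as a bar. The medians are -0.56 for the chemokine family, -0.67 for chemokine inducers, -1.39 for dendritic cell markers and 0.65 for neutrophil markers.

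Marker lists of the cells that carry these receptors gave the following. The shares over all genes tested, for comparison, were 14% lower, 13.5% higher and 27.5% in either direction. Of 11 tested T and NK cell markers, Nkg7 and Cd8b1 fell (log2 fold changes -1.54 and -2.26) and 9 did not pass, and the list summed to 2.19 to 4.79 CPM in DOX and 6.86 to 9.97 CPM in PBS livers. Of 2 tested B and plasma cell markers Cd79b fell (-1.20), the sums being 7.54 to 11.6 CPM in DOX and 11.1 to 14.4 CPM in PBS livers, with Pax5 at 0 in all DOX libraries. Of 7 Kupffer cell markers Vsig4 and Marco rose (0.72 and 0.61) and C6 and Cd5l fell (-0.79 and -0.52), with sums of 653 to 876 CPM in DOX and 795 to 873 CPM in PBS livers. Of 11 markers of monocytes and recruited macrophages Itgam and Gpnmb rose (0.77 and 1.27) and Fcgr1 fell (-0.50), with sums of 1941 to 2802 CPM in DOX and 2103 to 2329 CPM in PBS livers. Of 9 stellate cell and fibroblast markers 6 fell, among them Col3a1 and Col1a1, and of 9 endothelial markers 4 rose, among them Pecam1 and Oit3. Stellate and fibroblast markers summed to 383 to 609 CPM in DOX and 963 to 1205 CPM in PBS livers. Most of these sums was collagen mRNA, with Col3a1 averaging 238 CPM in DOX and 657 CPM in PBS livers, and Col1a1 87.5 and 241 CPM. Acta2, Des and Reln did not pass. Endothelial markers summed to 284 to 341 CPM in DOX and 234 to 270 CPM in PBS livers. The part of cell numbers in the chemokine values was not tested.

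**Figure D5:**
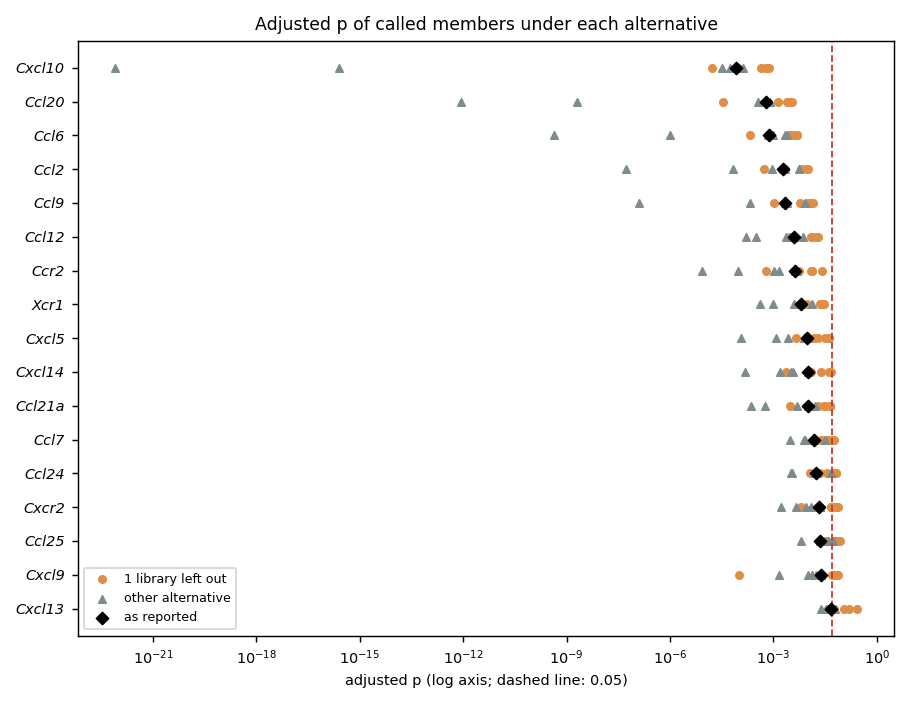
Adjusted p (x axis, log scale) of 17 called members as reported (black), with 1 library left out (orange) and under the other alternatives (grey), with the threshold of 0.05 dashed. Cxcl10, Ccl20, Ccl6, Ccl2, Ccl9, Ccl12, Ccr2, Xcr1, Cxcl5, Cxcl14 and Ccl21a stay left of the line throughout, and the other 6 cross it.

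Of the 18 called members, 12 passed under every alternative that tested them. Ccl7, Ccl24, Ccl25, Cxcl9, Cxcl13 and Cxcr2 did not. The number of members called higher, 5 as reported, was 2 without DOX 1, 3 without PBS 2 and 2 without PBS 3. The number called lower ran from 10 to 17 when single libraries were left out, against 13 as reported.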

How the data were processed

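Per the labels' protocols, liver RNA was purified by RNeasy and made into SMARTER mRNA-seq libraries. The authors deposited whole-number counts per gene symbol and, for the same 6 libraries, FPKM values. Dividing count by FPKM gave 1 gene length in all libraries to within 1.84e-06, so the deposited FPKM carry no further measurement and were used only to compare levels between genes. The submitters' processing notes list GRCm38, mm10 and hg38 with no role. The aligner is not given in the sources used here, nor are the counting program, the strand setting and the annotation.

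Counts of all 6 libraries were fitted with edgeR 4.0.16 in R 4.3.3 (TMM, filterByExpr with minimum count 10 and minimum total 15, robust quasi-likelihood test, group as the only term). P-values were adjusted over 14681 genes by Benjamini-Hochberg, with calls at adjusted p under 0.05. The biological coefficient of variation was 0.155. Libraries of a group differed well beyond sampling noise (chi-square per degree of freedom 30.0 to 83.9). Alternatives were DESeq2 1.42.0, other scalings and filters, the replicate number as a block, and leaving out each library. The procedure was also run on simulated counts, in which far fewer genes changed than were called here. Those changes were balanced in direction, so that run could not test the scaling between groups.

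Members were chosen by symbol. Counts cover every member, but some results are not reported here by name, nor drawn in the plots that name genes. The members and the lists were chosen with earlier results of these data known. Values per library are given for called members and the 10 of highest FPKM, and up to 4 called genes are named per list by smallest p. Further genes are named where a count is spelled out or the make-up of a list or its sum is described. Positions and promoters came from RefSeq (GRCm38.p6), in which all 57 symbols were found, and exon overlaps from GENCODE M21. Intervals cover counting and replicate spread, and take no account of PCR duplicates.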

Additional observations from a re-analysis of the deposited data

How the results depend on the processing

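Scaled by library size alone, calls over the whole table numbered 1028 for higher and 3429 for lower, against 1975 and 2062 as reported, and 3 members were higher. With 1 library left out, the count of all genes higher ran from 1208 to 2440 and that of all genes lower from 1305 to 2348, the members higher from 2 to 6 and the members lower from 10 to 17. With relative log expression factors or DESeq2, 5 members were higher and 13 lower. With the low-count filter off, 5 were higher and 16 lower, and with at least 1 CPM in 3 libraries, which left 30 members, 4 were higher and 11 lower. Of 18 called members 12 passed under every alternative that tested them, and 0 changed direction. Among the 25 uncalled tested members, 7 passed under at least 1 alternative.

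The replicate numbers of the titles share no stated origin. Deviations of same-numbered libraries from their group means correlated at 0.09, -0.07 and -0.13, and those of differently numbered libraries at -0.13 to 0.19. With 3 libraries per group, these values show no sign of pairing but cannot exclude a shared origin. With the replicate block, 1633 genes were higher and 1849 lower, and 5 members were higher and 14 lower, Xcl1 being the addition. Depth limits Ccl20, Ccl12, Xcr1 and Xcl1, whose DOX libraries hold few reads, Cxcl13, whose PBS libraries do, and the 14 members under the filter. Each group has 3 libraries, and where 1 is left out the spread is pooled over both groups.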
